A study of Mus musculus with 15 samples.

Results

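AMP-activated protein kinase (AMPK) is a fuel sensor that is built from 3 kinds of subunit, and its 7 subunit genes were followed here in the heart apex of 3 groups of mice. The members were all probe sets whose annotated symbol was Prkaa1, Prkaa2, Prkab1, Prkab2, Prkag1, Prkag2 or Prkag3. This rule reads symbols and no signal, but the family itself was chosen with earlier results of these data known. Its counts beside those of all probe sets therefore describe only. The members came to 16 of the 45096 probe sets on the array and 7 of its 18190 named genes. The groups were the inbred strains C57BL/6J (labelled C57Bl/6) and C3H/HeJ (labelled C3H) and their F1 hybrid B6C3F1/J (labelled B6C3F1), with 5 arrays each, 1 per mouse. All 15 animals were males aged 9 to 10 weeks that carried an abdominal telemetry transmitter, implanted at 7 weeks of age under tribromoethanol, and received nothing else. They were housed singly and ate NTP 2000 diet. The tissue is a piece of whole apex, so that fewer cells of a type and less RNA per cell cannot be told apart. The design asks which transcripts differ between the parental strains and where the hybrid lies.

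AMPK binds a catalytic α subunit, a scaffolding β subunit that carries a glycogen-binding module, and a γ subunit that binds adenine nucleotides. When AMP and ADP rise against ATP, the upstream kinase LKB1 (Stk11) phosphorylates the α subunit, and the active complex turns on fuel uptake and oxidation and turns off synthesis. In heart muscle α2 (Prkaa2) is the main catalytic isoform. The γ2 subunit (Prkag2) is known because inherited changes in it cause a human cardiomyopathy with glycogen storage and ventricular pre-excitation. Neither kinase activity nor protein was measured here: the values are messenger RNA signals from a 3′ expression array, and signals of different probe sets were not compared as levels.

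Values are given as log2(signal + 16), where signal is the deposited array signal on its linear scale. A probe set is called changed where limma's adjusted p, taken over all 23048 probe sets tested, was under 0.05. Of the 16 member probe sets 15 passed the filter on dim signals and were tested. The exception was Prkag2 1431263_at, with a mean of 5.01 against the filter's 5.74. Where several sets measured a gene, the set with the highest mean over all arrays (the brightest set) stood for the gene. The number of arrays limits precision, and limma's p-values weigh a difference against the spread between arrays of the same strain. Arrays were not repeated within a mouse, so this spread holds differences between mice and measurement noise together.

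The arrays were evenly scaled, with trimmed means of 500.26 to 500.28. The log2 ratio of the Gapdh 3′ signal to its 5′ signal (the Gapdh ratio) is above 0 where the 3′ signal is higher. It was 0.85 ± 0.24 in C57Bl/6, 0.90 ± 0.21 in B6C3F1 and 0.60 ± 0.26 in C3H (SD, n = 5 each). The mean log2 signal of 12 poly-A control probe sets was 8.69 ± 0.60, 8.70 ± 0.15 and 9.34 ± 0.64 in the same order (SD, n = 5 each). All 8 cardiomyocyte markers were above the filter and none passed between the parents, their summed signal running from 410437 to 550547 in C57Bl/6 and from 352496 to 477469 in C3H. Between the parents 3 of 6 endothelial markers were lower in C3H (summed signal 11521 to 13737 in C57Bl/6 and 7406 to 11765 in C3H). In the opposite direction, 3 of 6 fibroblast markers were higher in C3H (26720 to 31502 against 36532 to 41571). Macrophage markers had 1 higher and 1 lower of 5, and smooth muscle and pericyte markers 1 lower of 4. Myl4, an atrial light chain, was higher in C3H by 1.16 (adjusted p = 6.14e-06), Mbp of Schwann cells by 0.88 (adjusted p = 0.0126), and the red cell gene Alas2 was lower by -0.79 (adjusted p = 0.0166). Of the skeletal muscle markers, 5 of 6 were below the filter, as were both adipocyte markers that the array names. The part of these marker and control differences in the results that follow was not tested.

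**Figure D1:**
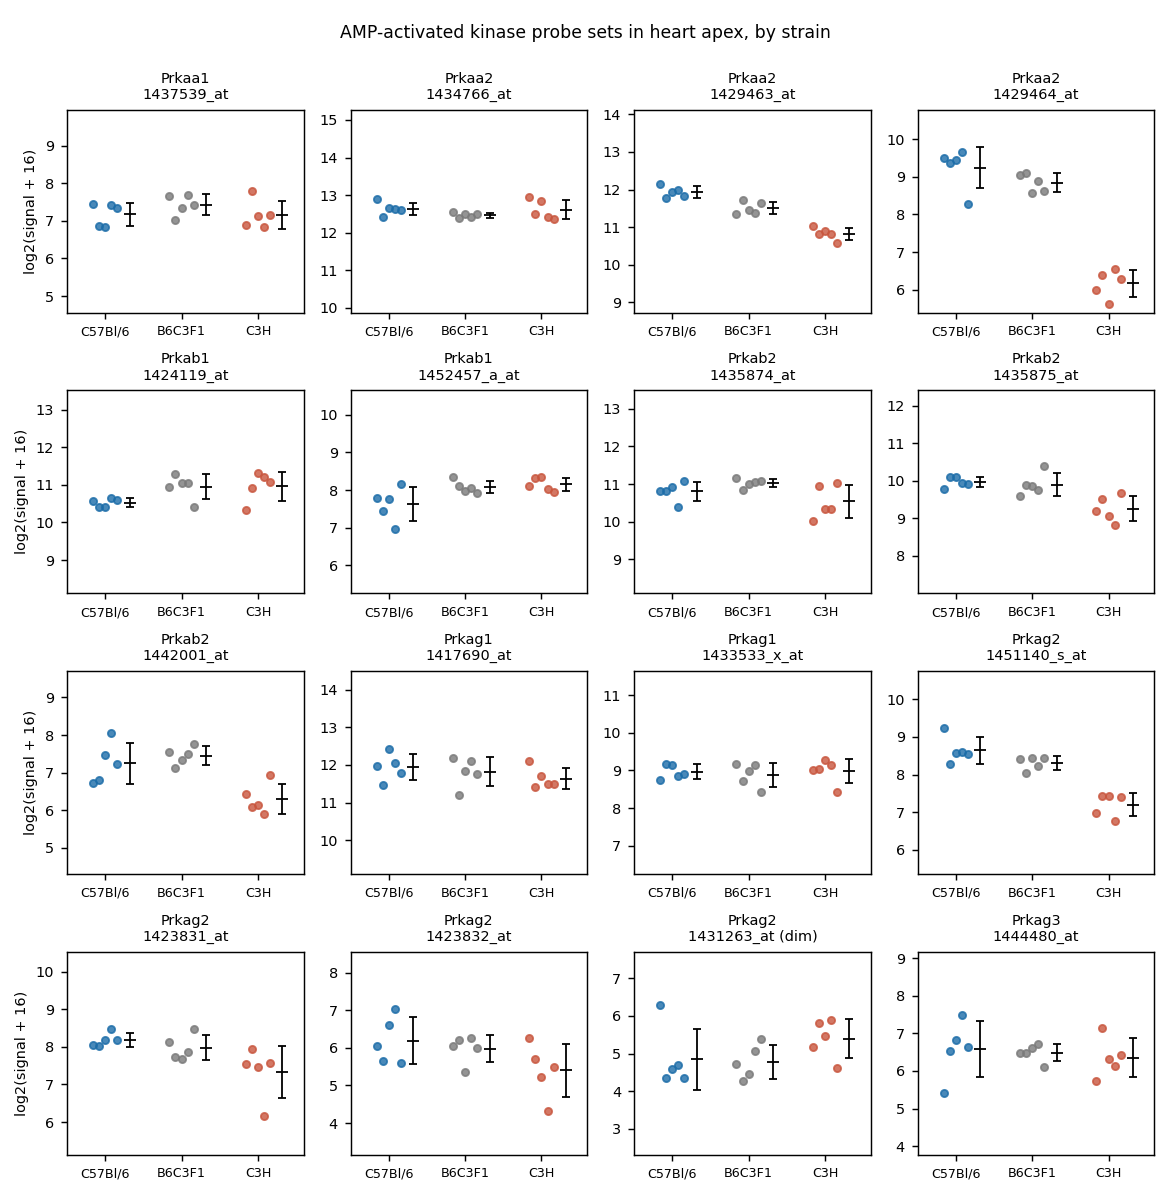
Signal of all 16 AMPK probe sets on each array, as log2(signal + 16), by strain. Points are arrays (5 per strain), black bars give mean ± SD, and every panel spans the same number of log2 units. Prkag2 1451140_s_at and Prkaa2 1429463_at and 1429464_at sit lower on all C3H arrays than on any C57Bl/6 array, while Prkaa2 1434766_at overlaps throughout.

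Between the parental strains, AMPK differed in probe sets of 3 genes, all of them lower in C3H: Prkag2, Prkaa2 and Prkab2. No member probe set was higher in C3H and 6 of 15 were lower. Over all probe sets tested, 6.17% were higher in C3H and 7.49% were lower (1422 and 1726 sets). With each array centred on its median these became 1922 and 1017 sets, and the AMPK sets 1 higher, Prkab1 1424119_at, and 5 lower, without Prkag2 1423831_at. The arrays of the parents did not overlap for 5 of the 15 sets, against 10.0% of all sets tested. The median difference over the 15 sets was -0.30, and over all sets tested it was -0.02. When each gene was counted by its brightest set alone, Prkag2 was the only 1 of the 7 genes that passed, where 6.96% of all genes counted in that way were higher in C3H and 8.06% were lower.

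Prkag2 encodes γ2, the long γ isoform with nucleotide-binding CBS repeats. Its brightest set, 1451140_s_at, read 9.24, 8.28, 8.56, 8.59 and 8.56 on the C57Bl/6 arrays. It read 8.42, 8.03, 8.45, 8.23 and 8.45 on the B6C3F1 arrays, and 6.98, 7.43, 7.42, 6.76 and 7.41 on the C3H arrays. Every C3H array lay below every C57Bl/6 and every B6C3F1 array, while the hybrid overlapped C57Bl/6. C3H was lower than C57Bl/6 by -1.45 ± 0.18 (log2 difference ± SE, adjusted p = 9.15e-06 by limma, n = 5 each), a 2.73-fold difference on this scale. The order of the strain means was C57Bl/6 8.65 ± 0.35, B6C3F1 8.31 ± 0.18 and C3H 7.20 ± 0.31 (SD). The first pair of neighbours in that order did not pass (adjusted p = 0.336) and the second did (adjusted p = 0.000639).

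The other tested Prkag2 sets also had lower means in C3H, and 1 of the 2 passed. The set 1423831_at read 8.04, 8.03, 8.17, 8.47 and 8.17 in C57Bl/6 against 7.56, 7.94, 7.47, 6.15 and 7.58 in C3H, with no overlap, and 8.12, 7.73, 7.67, 7.87 and 8.47 in B6C3F1. The parental difference was -0.84 ± 0.25 (adjusted p = 0.0303). This call was close to the threshold: it was lost in 8 of 29 alternatives, among them those without C57Bl/6 replicate 3 (-0.84, adjusted p = 0.0581), C57Bl/6 replicate 4 (-0.77, 0.0782), C57Bl/6 replicate 5 (-0.84, 0.0548) or C3H replicate 4 (-0.54, 0.0609). With the mean of the poly-A controls as a covariate (the poly-A covariate) it was -0.54 (adjusted p = 0.235). The set 1423832_at, with strain means of 6.19 ± 0.62, 5.98 ± 0.36 and 5.40 ± 0.71 in C57Bl/6, B6C3F1 and C3H (SD, n = 5), differed by -0.79 ± 0.39 and did not pass (adjusted p = 0.201). The dim set 1431263_at had means of 4.85 ± 0.81, 4.78 ± 0.45 and 5.39 ± 0.51, and without a filter its difference was 0.54 ± 0.38 (adjusted p = 0.482). The suffix _s_at marks a set whose probes match several transcripts. Without sets ending in _s_at or _x_at, Prkag2 was represented by 1423831_at, at -0.84 (adjusted p = 0.0286).

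Prkaa2 encodes α2, and its 3 probe sets gave 3 different answers. The brightest, 1434766_at, read 12.88, 12.43, 12.65, 12.62 and 12.59 in C57Bl/6, then 12.56, 12.40, 12.50, 12.41 and 12.49 in B6C3F1, and 12.94, 12.50, 12.84, 12.41 and 12.38 in C3H. The strains overlapped, and the parental difference was -0.02 with a 95% interval from -0.25 to 0.21 (adjusted p = 0.941). The second set, 1429463_at, read 12.16, 11.77, 11.93, 11.98 and 11.83 in C57Bl/6, then 11.36, 11.73, 11.47, 11.39 and 11.64 in B6C3F1, and 11.03, 10.81, 10.89, 10.83 and 10.58 in C3H. Here the strains did not overlap, with the hybrid between its parents, and C3H was lower by -1.11 ± 0.10 (adjusted p = 1.65e-07), or 2.16-fold.

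The third Prkaa2 set, 1429464_at, had the largest difference of any AMPK set. It read 9.50, 9.36, 9.44, 9.66 and 8.27 in C57Bl/6, then 9.04, 9.11, 8.56, 8.90 and 8.61 in B6C3F1, and 6.00, 6.38, 5.63, 6.54 and 6.28 in C3H. The lowest C57Bl/6 array stood more than 1 log2 unit below the other 4 and still lay above every C3H array. C3H was lower by -3.08 ± 0.23 (adjusted p = 4.89e-09), an 8.46-fold difference, and by -3.32 without that C57Bl/6 array. On the linear scale the mean signals were 623, 449 and 57.6 in C57Bl/6, B6C3F1 and C3H.

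The disagreement between the Prkaa2 sets was itself tested within arrays. The brightest set minus 1429463_at was 0.70 ± 0.05 in C57Bl/6 and 1.79 ± 0.15 in C3H (SD, n = 5). The brightest set minus 1429464_at was 3.39 ± 0.54 and 6.45 ± 0.59. The strain differences in these gaps, 1.09 and 3.06, each had the smallest p that 5 against 5 arrays allow (exact two-sided permutation test, p = 0.00794, adjusted over 8 such tests to 0.0317), with no overlap between the parents. So no single strain difference can be given for Prkaa2 from these arrays. Where on the transcript each set lies, and the strains' sequence beneath its probes, were not analysed here. For the other genes the 6 within-gene comparisons had adjusted p of 0.127 or more, except that Prkag2 1451140_s_at minus 1423832_at passed with a pseudocount of 64 (-0.78, adjusted p = 0.0423).

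Prkaa1, the α1 isoform found in most tissues, had 1 set, 1437539_at. It read 7.44, 6.85, 6.83, 7.41 and 7.34 in C57Bl/6, then 7.66, 7.03, 7.35, 7.69 and 7.43 in B6C3F1, and 6.89, 7.78, 7.13, 6.83 and 7.17 in C3H. All 3 groups overlapped, and the parental difference of -0.02 had a 95% interval from -0.46 to 0.43 (adjusted p = 0.976).

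Of the β subunits, Prkab2 had 2 of 3 sets lower in C3H and Prkab1 had none. Prkab2 encodes β2, the scaffold isoform best known from skeletal muscle. Its brightest set, 1435874_at, averaged 10.81 ± 0.26 in C57Bl/6, 11.03 ± 0.12 in B6C3F1 and 10.54 ± 0.44 in C3H (SD, n = 5), and did not pass between the parents (-0.27 ± 0.16, adjusted p = 0.325). The set 1435875_at read 9.78, 10.09, 10.10, 9.95 and 9.90 in C57Bl/6, then 9.59, 9.89, 9.85, 9.75 and 10.39 in B6C3F1, and 9.19, 9.52, 9.07, 8.83 and 9.68 in C3H. The parents did not overlap, and C3H was lower by -0.71 ± 0.16 (adjusted p = 0.00399). The dimmer set 1442001_at read 6.72, 6.80, 7.46, 8.05 and 7.23 in C57Bl/6, then 7.56, 7.11, 7.33, 7.51 and 7.77 in B6C3F1, and 6.42, 6.09, 6.14, 5.91 and 6.94 in C3H. The parents overlapped by 1 C3H array, and the difference was -0.95 ± 0.26 (adjusted p = 0.0167). It did not pass without C57Bl/6 replicate 4 (-0.75, adjusted p = 0.0566) or with the poly-A covariate (-0.90, adjusted p = 0.0686).

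Prkab1 encodes β1, and its values lay on the other side of zero without passing. Its brightest set, 1424119_at, read 10.58, 10.40, 10.40, 10.65 and 10.59 in C57Bl/6, then 10.94, 11.30, 11.06, 11.05 and 10.41 in B6C3F1, and 10.32, 10.92, 11.31, 11.21 and 11.07 in C3H. A single low array in each of B6C3F1 and C3H overlapped C57Bl/6, and the parental difference was 0.44 ± 0.16 (adjusted p = 0.0866). It passed without C3H replicate 1 (0.60, adjusted p = 0.00552), without B6C3F1 replicate 5 (0.44, 0.0469), with array weights (0.49, 0.0363) and with each array centred on its median (0.54, 0.0307). The other set, 1452457_a_at, averaged 7.63 ± 0.45, 8.08 ± 0.17 and 8.15 ± 0.17 in C57Bl/6, B6C3F1 and C3H (SD, n = 5), a parental difference of 0.52 ± 0.19 (adjusted p = 0.0687). It passed without C57Bl/6 replicate 5 (0.66, adjusted p = 0.0208) and with the poly-A covariate (0.72, 0.0229).

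Among the γ subunits apart from Prkag2, nothing passed. Prkag1 encodes γ1, the widely expressed isoform. Its brightest set, 1417690_at, ran from 11.47 to 12.41 in C57Bl/6, from 11.21 to 12.20 in B6C3F1 and from 11.40 to 12.10 in C3H, a parental difference of -0.30 ± 0.18 (adjusted p = 0.320). Its other set, 1433533_x_at, had means of 8.97 ± 0.19, 8.89 ± 0.32 and 8.98 ± 0.32 (SD, n = 5) and a difference of 0.01 ± 0.17 (adjusted p = 0.977). Prkag3 encodes γ3, known from fast skeletal muscle. Its set 1444480_at, with a mean of 6.47, ran from 5.42 to 7.49 in C57Bl/6 and from 5.73 to 7.14 in C3H, and differed by -0.23 ± 0.33 (adjusted p = 0.725).

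**Figure D2:**
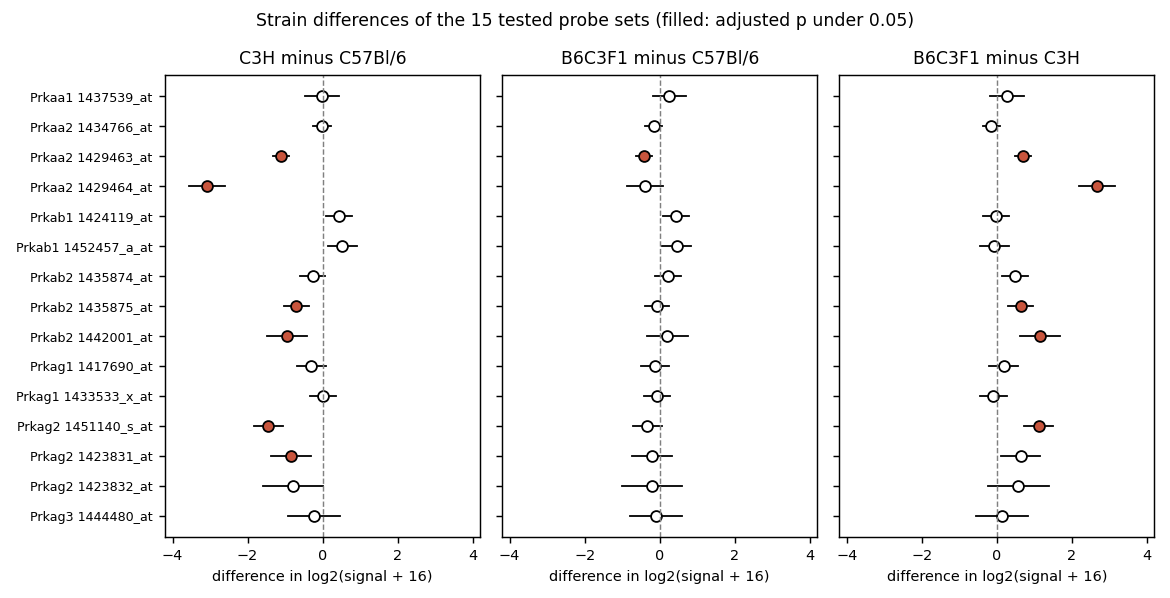
Differences in log2(signal + 16) of the 15 tested AMPK probe sets for the 3 strain pairs, with 95% intervals from limma. Filled points have an adjusted p under 0.05: 6 sets lower in C3H than C57Bl/6, 1 lower in B6C3F1 than C57Bl/6 and 5 higher in B6C3F1 than C3H.

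In all 6 sets that differed between the parents, the mean of the hybrid lay nearer to C57Bl/6 than to C3H on the log2 scale. C57Bl/6 was the higher parent in each of these sets, and a log2 scale places a hybrid at the linear midpoint nearer to the higher parent. The 3 strain comparisons share arrays, so their values are given side by side and their calls are not independent. Against C57Bl/6, no AMPK set was higher in B6C3F1 and 1 was lower, where 1.71% and 1.48% of all tested sets were higher and lower. That set was Prkaa2 1429463_at, at -0.42 ± 0.10 (adjusted p = 0.0321), with no overlap between the arrays, as in 5.55% of all tested sets. Its call was lost in 9 of 29 alternatives, including the fit with the replicate number as a block (adjusted p = 0.0520). Without C57Bl/6 replicate 1, 3 or 4 the difference was -0.36, -0.42 and -0.41, and without B6C3F1 replicate 1, 3 or 4 it was -0.38, -0.41 and -0.39, none of which passed (adjusted p = 0.0731 to 0.101). Leaving out B6C3F1 replicate 5 added a second set.

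Against C3H, 5 AMPK sets were higher in B6C3F1 and 0 were lower, where 3.10% and 2.05% of all tested sets were. They were Prkaa2 1429464_at (2.68 ± 0.23, adjusted p = 1.23e-07) and 1429463_at (0.69 ± 0.10, 0.000261), Prkag2 1451140_s_at (1.12 ± 0.18, 0.000639), and Prkab2 1442001_at (1.15 ± 0.26, 0.00977) and 1435875_at (0.63 ± 0.16, 0.0206). Arrays of the hybrid and C3H overlapped for the last of these 5 and not for the other 4, and they did not overlap for 5.75% of all tested sets. The call of Prkab2 1435875_at was lost in 7 of 29 alternatives. It was lost without B6C3F1 replicate 5 (0.51, adjusted p = 0.0550), C3H replicate 3 (0.59, 0.0577) or C3H replicate 4 (0.53, 0.0676). Centring arrays on their median (0.56, 0.0667), limma without the intensity trend (0.63, 0.0538) and a fit of the 2 compared strains alone (0.63, 0.0507) also lost it. So did the poly-A covariate (0.53, 0.148), under which Prkab2 1442001_at was also lost (1.11, 0.0580).

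The place of the hybrid between its parents was given as a share of the parental gap, with 0 at the C57Bl/6 mean and 1 at the C3H mean. On the log2 scale it was 0.13 for Prkaa2 1429464_at, 0.38 for Prkaa2 1429463_at and 0.23 for Prkag2 1451140_s_at. The other Prkag2 set that passed, 1423831_at, was at 0.24, with single hybrid arrays from -0.35 to 0.60. Prkab2 1435875_at was at 0.10, with single arrays from -0.60 to 0.54. Prkab2 1442001_at was at -0.21, which puts the hybrid's mean above that of both parents, with single arrays from -0.55 to 0.14. The departure of the hybrid from the midpoint of its parents passed in 1 AMPK set in the higher direction and 0 in the lower one, where 0.434% and 0.139% of all tested sets did. That set was Prkaa2 1429464_at, which lay above the midpoint by 1.14 ± 0.20 (adjusted p = 0.00580). On the linear scale the hybrid's mean signal of 449 compared with a parental midpoint of 340, and 5 of 5 hybrid arrays were above it, so that its place there was 0.31. For Prkag2 1451140_s_at the departure was 0.39 ± 0.16 (adjusted p = 0.281), and the linear place 0.35. The linear place of Prkaa2 1429463_at was 0.47, with 2 of 5 hybrid arrays above the linear midpoint. Linear places were 0.30 for Prkag2 1423831_at, 0.09 for Prkab2 1435875_at and -0.20 for Prkab2 1442001_at.

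Isoforms of the same subunit were set against each other within each array, so that a scaling factor common to an array largely cancels. The difference Prkag2 minus Prkag1, from the brightest sets, was -2.72, -3.19, -3.85, -3.46 and -3.24 in C57Bl/6, then -3.78, -3.18, -3.38, -3.89 and -3.30 in B6C3F1, and -5.12, -3.98, -4.29, -4.73 and -4.09 in C3H. Every C3H array lay below all others. C3H differed from C57Bl/6 by -1.15, and B6C3F1 exceeded C3H by 0.93 (exact two-sided permutation tests, p = 0.00794 each, the smallest possible, adjusted over 12 such tests to 0.0317). The hybrid and C57Bl/6 differed by -0.21 (exact permutation p adjusted to 0.505). Without C57Bl/6 replicate 1 or C3H replicate 3, 4 or 5 the parental difference was -1.01, -1.19, -1.08 and -1.24, still with no overlap, although the exact permutation p was then adjusted to 0.0571 to 0.0635 and did not pass.

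Prkag2 minus Prkag3 was 2.07 ± 1.03 in C57Bl/6, 1.83 ± 0.34 in B6C3F1 and 0.85 ± 0.39 in C3H (SD, n = 5). The parental difference of -1.22 passed (exact permutation p = 0.0159, adjusted to 0.0476), but C57Bl/6 replicate 1, at 3.82, weighed on it: without that array it was -0.78 (adjusted to 0.0952). It was also lost without C3H replicate 2, 3, 4 or 5 (-1.08, -1.28, -1.16 and -1.26). The hybrid exceeded C3H by 0.99 (exact permutation p adjusted to 0.0317). For Prkab2 minus Prkab1 the parents differed by -0.71 (exact permutation p = 0.0317, adjusted to 0.0635). For Prkaa2 minus Prkaa1 they differed by -0.0032 (p = 0.984, exact permutation), while the hybrid lay -0.42 below C57Bl/6 (adjusted to 0.0635, and to 0.0381 after quantile normalization).

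**Figure D3:**
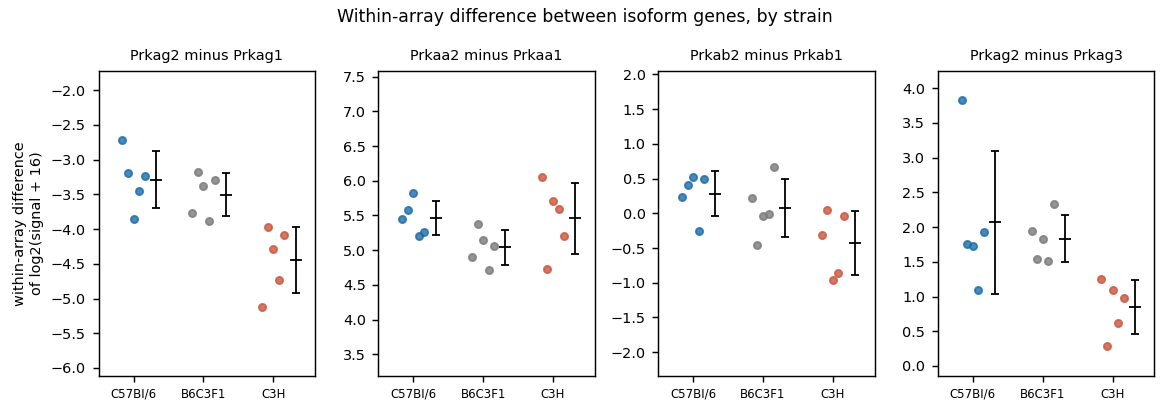
Within-array differences of log2(signal + 16) between the brightest sets of isoform genes, by strain. Points are arrays (5 per strain), bars are mean ± SD, and all panels span the same number of log2 units. The C3H arrays of Prkag2 minus Prkag1 lie between -5.12 and -3.98, below all arrays of the other groups.

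The promoters of the 3 genes with a probe set lower in C3H are shown, so that the letters before their starts can be seen. They are the 150 bases before each annotated transcription start, from RefSeq on GRCm38.p6, the C57BL/6J reference, and are written 5′ to 3′ on the gene's strand. The C3H sequence was not used here, and the arrays do not tell which Prkag2 start was in use. Capitals mark matches to 6 motifs searched on both strands: GGGCGG (the GC box bound by Sp1), AAGGTCA (bound by oestrogen-related receptors, which drive energy metabolism genes in heart), GATAA (GATA factors), the MEF2 site, CACGTG (the E-box) and TATAAA (the TATA box). Matches of the same motif can overlap.
Prkag2 start 1, chr5:25100643-25100792, minus strand: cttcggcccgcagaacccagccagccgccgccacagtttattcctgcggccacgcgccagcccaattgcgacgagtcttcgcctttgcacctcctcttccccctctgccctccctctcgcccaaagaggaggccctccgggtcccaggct
Prkag2 start 2, chr5:24995754-24995903, minus strand: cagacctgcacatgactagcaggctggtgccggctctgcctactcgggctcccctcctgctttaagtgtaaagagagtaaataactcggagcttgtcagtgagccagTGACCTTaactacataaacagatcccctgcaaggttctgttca
Prkag2 start 3, chr5:24908510-24908659, minus strand: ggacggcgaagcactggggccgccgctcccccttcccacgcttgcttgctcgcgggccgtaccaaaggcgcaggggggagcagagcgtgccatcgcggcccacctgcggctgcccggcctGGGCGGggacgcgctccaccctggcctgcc
Prkaa2, chr4:105109899-105110048, minus strand: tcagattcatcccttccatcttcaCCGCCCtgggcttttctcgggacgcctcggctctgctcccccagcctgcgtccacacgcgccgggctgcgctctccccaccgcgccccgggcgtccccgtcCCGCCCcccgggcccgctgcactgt
Prkab2, chr3:97658062-97658211, plus strand: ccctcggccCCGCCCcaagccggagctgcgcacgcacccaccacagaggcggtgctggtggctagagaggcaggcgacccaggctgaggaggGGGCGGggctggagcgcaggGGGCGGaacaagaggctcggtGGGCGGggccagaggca

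Within 250 bases before the start, Prkag2 start 2 held AAGGTCA, beginning 43 bases before the start and read there as its complement. None of the other 8 AMPK windows held it, and 4.08% of 32851 windows of all genes did. The GC box stood in 6 of the 9 AMPK windows and in 32.7% of all windows, among them Prkaa2, Prkab2 and Prkag2 starts 1 and 3. GATAA stood in 1 AMPK window, that of Prkag1 (22.6% of all windows). The TATA box, the E-box and the MEF2 site stood in 0 of the 9 (12.4%, 6.02% and 0.508% of all). Prkag2 start 2 was also the least GC-rich of the AMPK windows, at 48.4%, against 73.2% and 77.2% at starts 1 and 3, 70.0% for Prkaa2 and a median of 52.4% over all windows. These matches describe letters and not binding.

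The genes around AMPK were followed in 5 lists, each gene by its brightest set, and C3H against C57Bl/6. The lists, too, were chosen with earlier results of these data known, so their counts beside all genes describe only. Over all 13111 genes tested the shares were the 6.96% and 8.06% given above, and the median difference was -0.02. Of the 111 listed genes 103 were tested, 12 were higher in C3H and 7 were lower. With array medians set equal, the median of all genes was 0.08 and these counts were 15 and 3, with list medians of -0.05 for the upstream genes and 0.28 for the glycogen genes.

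Upstream kinases, phosphatases and regulators included none higher and 3 lower of 21 tested, with a median of -0.16. Akt1, a kinase that phosphorylates α subunits and dampens their activation, was lower by -0.53 ± 0.11 (adjusted p = 0.00149), and the hybrid lay above the parental midpoint by 0.50 (adjusted p = 0.00837). Ppp2cb, a catalytic subunit of protein phosphatase 2A, was lower by -0.45 ± 0.09 (adjusted p = 0.00209), and Cab39l, a scaffold related to the LKB1 partner MO25α, by -0.33 ± 0.10 (adjusted p = 0.0330). With arrays centred on their median, only Akt1 of these 3 passed. Cab39l also did not pass without C57Bl/6 replicate 3, 4 or 5 or C3H replicate 3 or 4 (-0.33 to -0.29, adjusted p = 0.0600 to 0.101). Nor did it pass with the poly-A covariate (-0.35, adjusted p = 0.0699), the 2 parental strains alone (0.0625) or the replicate block (0.0519). LKB1 itself (Stk11) was at 10.65 ± 0.19 in C57Bl/6 and 10.49 ± 0.17 in C3H (SD, n = 5) and did not pass (adjusted p = 0.371). Of 11 LKB1-dependent relatives of AMPK, 1 was higher and none lower, with a median of 0.07. This was Sik3, a salt-inducible kinase, at 0.60 ± 0.18 (adjusted p = 0.0293). Its brightest set ends in _x_at, and without such sets Sik3 read -0.12 (adjusted p = 0.665). It also did not pass without C57Bl/6 replicate 3 or 5 or C3H replicate 3 or 4 (0.48 to 0.55, adjusted p = 0.0803 to 0.0945). Nor did Sik3 pass with the poly-A covariate (0.38, adjusted p = 0.237), limma without the intensity trend (0.0726) or the 2 parental strains alone (0.0512).

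Substrates and downstream genes had 2 higher and 4 lower of 31, with a median of -0.04. Lower in C3H were the Rab GTPase-activating proteins of glucose transporter traffic, Tbc1d4 (AS160), by -0.91 ± 0.16 (adjusted p = 0.000473), and Tbc1d1, by -0.63 ± 0.16 (adjusted p = 0.00997). Tbc1d4 went from 11.34 ± 0.23 in C57Bl/6 to 10.95 ± 0.35 in B6C3F1 and 10.43 ± 0.30 in C3H (SD, n = 5). Of its 2 tested sets, 1 passed. Tbc1d1 had 1 tested set, which ends in _s_at, so no other set could be compared with it. Acacb, the acetyl-CoA carboxylase whose product restrains fatty acid entry into mitochondria, was at -0.50 ± 0.16 (adjusted p = 0.0404), and passed in 15 of 30 alternatives. It was lost without C57Bl/6 replicate 1, 2, 3 or 4, B6C3F1 replicate 4, or C3H replicate 1, 2, 3 or 5 (-0.52 to -0.40, adjusted p = 0.0506 to 0.113). Among the other losses, Acacb was at -0.28 with the Gapdh ratio as a covariate (adjusted p = 0.191) and at -0.39 with arrays centred on their median (0.0781). Cd36, the fatty acid translocase, was at -0.35 ± 0.10 (adjusted p = 0.0237), and passed in 21 of 30, but not without C57Bl/6 replicate 1 or 4 or C3H replicate 2 or 5 (-0.34 to -0.27, adjusted p = 0.0544 to 0.0743). With the same covariate Cd36 was at -0.29 (adjusted p = 0.0760), and with the same centring at -0.25 (0.138). Higher in C3H were Srebf1, the lipogenic transcription factor SREBP-1, by 1.56 ± 0.21 (adjusted p = 1.94e-05), and Eef2k, the kinase that slows translation elongation, by 0.45 ± 0.11 (adjusted p = 0.00847). Eef2k rested on a set ending in _s_at, without which it read -0.025 (adjusted p = 0.938). The glucose transporter Slc2a4 (GLUT4) did not pass (0.27 ± 0.10, adjusted p = 0.0745), nor did Ppargc1a (0.21 ± 0.16, adjusted p = 0.440). Slc2a4 passed with arrays centred on their median (0.38, adjusted p = 0.0305), without C3H replicate 2 (0.32, 0.0424) and with the Gapdh ratio as a covariate (0.32, 0.0475), under which Ppargc1a also passed (0.42, 0.0470).

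Adenine nucleotide and phosphocreatine genes had 4 higher and 0 lower of 18, with a median of -0.01. Ampd2, an AMP deaminase, was higher by 1.81 ± 0.49 (adjusted p = 0.0155). That value came from a set ending in _x_at, without which Ampd2 read -0.18 (adjusted p = 0.637). With the Gapdh ratio as a covariate Ampd2 was at 1.12 and did not pass (adjusted p = 0.0752). Adssl1, the muscle adenylosuccinate synthase, was higher by 0.56 ± 0.09 (adjusted p = 0.000103), with means of 12.15 ± 0.12, 12.58 ± 0.11 and 12.71 ± 0.11 in C57Bl/6, B6C3F1 and C3H (SD, n = 5). The hybrid exceeded C57Bl/6 there by 0.43 (adjusted p = 0.00677). Ak4, a mitochondrial adenylate kinase, was at 0.41 ± 0.10 (adjusted p = 0.00814), and Slc6a8, the creatine transporter, at 0.32 ± 0.10 (adjusted p = 0.0303). Slc6a8 did not pass without C57Bl/6 replicate 3 or 5 or C3H replicate 3 or 4 (0.27 to 0.30, adjusted p = 0.0727 to 0.0954), and Ak4 did not without its set ending in _s_at (0.33, adjusted p = 0.0873). Slc6a8 was also lost with the poly-A covariate (0.24, adjusted p = 0.190), limma without the intensity trend (0.0723) and the 2 parental strains alone (0.0576). The creatine kinases of muscle, Ckm (-0.19, adjusted p = 0.237) and Ckmt2 (-0.28, adjusted p = 0.103), did not pass, except Ckmt2 without C3H replicate 5 (-0.33, adjusted p = 0.0492). Without sets ending in _s_at or _x_at, this list had 2 higher and 1 lower, with a median of -0.03.

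Glycogen genes had 5 higher and 0 lower of 23, with a median of 0.17. Pygl, the liver isoform of glycogen phosphorylase, was higher by 2.19 ± 0.17 (adjusted p = 8.30e-09), with means of 7.99 ± 0.17 in C57Bl/6, 9.49 ± 0.21 in B6C3F1 and 10.18 ± 0.43 in C3H (SD, n = 5), and all 3 strain pairs passed. Phka1, the muscle α subunit of phosphorylase kinase, was higher by 0.82 ± 0.21 (adjusted p = 0.0114), but not with the poly-A covariate (0.55, adjusted p = 0.125). Stbd1, a glycogen-binding protein that AMPK can phosphorylate, was higher by 0.81 ± 0.18 (adjusted p = 0.00330). Nhlrc1, the ubiquitin ligase malin that acts on glycogen-associated proteins, was higher by 0.49 ± 0.13 (adjusted p = 0.0141). Gyg, the glycogenin primer, was higher by 0.27 ± 0.08 (adjusted p = 0.0206), and read 0.12 (adjusted p = 0.499) without sets ending in _s_at or _x_at. It was also lost without C57Bl/6 replicate 5 or C3H replicate 4 (0.25 for each, adjusted p = 0.0567 and 0.0583). The poly-A covariate (0.23, adjusted p = 0.117) and limma without the intensity trend (0.27, 0.0516) lost Gyg as well. The muscle enzymes that make and break the polymer did not pass: Gys1 was at -0.19 (adjusted p = 0.355) and Pygm at 0.30 (adjusted p = 0.0931). Pygm passed in 4 alternatives (0.30 to 0.41, adjusted p = 0.0137 to 0.0461): centring on the median, quantile normalization, array weights and the Gapdh ratio as a covariate. With the poly-A covariate the list had 3 higher and 1 lower, and its median was 0.04. Without sets ending in _s_at or _x_at it had 4 higher and 1 lower, with a median of 0.12.

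**Figure D4:**
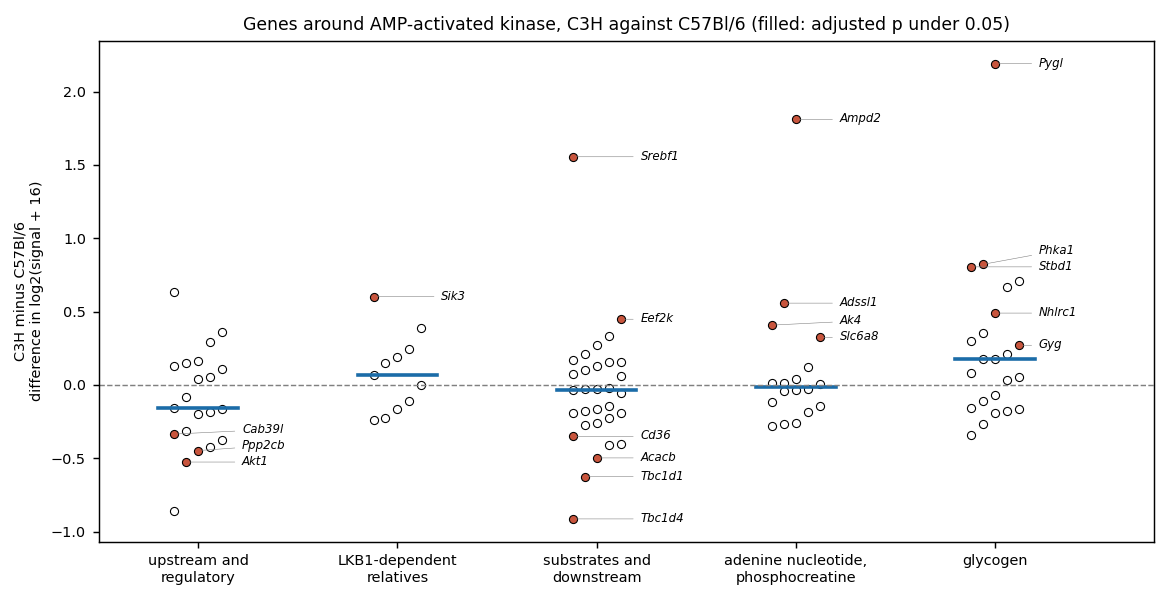
C3H minus C57Bl/6 differences in log2(signal + 16) of the tested genes of 5 lists around AMPK, each gene by its brightest probe set. Points are genes, filled and named where the adjusted p from limma was under 0.05, and blue bars are list medians. The 5 filled glycogen genes are all above 0, and the 3 filled upstream genes are all below 0.

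The genes whose signal most resembled Prkag2 1451140_s_at over the 15 arrays were Ahnak2 (Pearson r = 0.97), Rnf150 (0.97), Tmem71 (0.95), Mccc2 (0.95) and Il15 (0.94). After each strain's mean was taken out, r was 0.77, 0.87, 0.64, 0.58 and 0.54. For Prkaa2 1434766_at, which did not pass between any strains, they were Oat (0.85), Bmp6 (0.85), Reln (0.85), Arfgef1 (0.85) and Fam98a (0.84), and r after removal of strain means was 0.82 to 0.88. These points share arrays, scaling and strain, and the genes were picked for the highest r among all tested, so the values describe only.

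Few genes beside the 3 members with a probe set that differed between the parents could be tested. Of the 10 nearest genes of Prkaa2 (5 on each side), 1 had a tested set: Plpp3, a lipid phosphate phosphatase, which was higher in C3H by 0.59 ± 0.13 (adjusted p = 0.00329), opposite in sign to Prkaa2 1429463_at and 1429464_at. Of the 10 nearest to Prkag2, 1 was tested: Rheb, the GTPase that activates mTORC1, at 0.04 ± 0.09 (adjusted p = 0.858). Of the 10 nearest to Prkab2, 3 were tested and none passed: Chd1l (-0.16, adjusted p = 0.262), Fmo5 (-0.14, adjusted p = 0.649) and Pde4dip (0.33, adjusted p = 0.0747). Pde4dip passed without C57Bl/6 replicate 1 (0.43, adjusted p = 0.0138), with arrays centred on their median (0.44, 0.00968) and with the Gapdh ratio as a covariate (0.46, 0.00856).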

How the data were processed

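RNA from the heart apex of 15 mice was labelled in a two-cycle protocol from 50 ng of total RNA and read on 3′ expression arrays, per the labels' protocols. The deposited table holds 1 value per probe set and array. These are log2 signals made by the authors with MAS5, per the submitters' processing notes and the values; the log2 step and the scaling target are not given in the sources used here. MAS5 scales each array to a common trimmed mean, so values are relative within an array, and low signals are noisy.

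Values were returned to the linear scale and log2(signal + 16) was taken. In R 4.3.3, limma 3.58.1 (lmFit, eBayes with an intensity trend) was fitted to all 15 arrays and 23048 probe sets: those with 1 gene symbol (34940 of 45096, with 932 having several, 9160 none and 64 controls) and a mean at or above the 40th percentile, 5.74. Benjamini-Hochberg adjustment ran over all of them. Fold changes on this scale understate those of dim sets. Of the named sets 34736 matched the RefSeq gene table (GRCm38.p6). The fit was tested on simulated data. Exact permutation tests ran over arrays.

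Named genes were all 7 members, the passing genes of 5 lists (at most 6 each by size), the 5 genes most correlated with Prkag2 and with Prkaa2, and tested neighbours. This gene family and the lists were chosen with earlier results of these data known, and the probe sets of the family were then taken by symbol. Alternatives varied the pseudocount, filter, scaling, probe-set choice, variance model, covariates, the replicate block and the arrays used. The labels do not say whether the replicate numbers pair arrays, and the correlations given below cannot exclude that they do. The sample titles carry serial codes that run in blocks by strain. What these codes count is not stated, so strain cannot be told apart from any order that they may reflect. No array was a full duplicate of another (0 identical arrays). Protein sequences and probe positions were not analysed here.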

Additional observations from a re-analysis of the deposited data

Results flagged for a closer look

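In 3 of the 48 groups of 5 arrays (16 probe sets in 3 strains), the array at 1 end stood apart from the other 4 by more than 0.71 of the group's whole range. Chance gives this in about 1 in 20 groups. Prkaa2 1429464_at had its lowest C57Bl/6 value, 8.27, in replicate 5, where the others ran from 9.36 to 9.66. Prkag2 1423831_at had its lowest C3H value, 6.15, in replicate 4, where the others ran from 7.47 to 7.94; that array also had the highest poly-A control signal of all, 10.48. Prkag2 1431263_at, the set below the filter on dim signals, had its highest C57Bl/6 value, 6.28, in replicate 1, where the others ran from 4.34 to 4.70. The parts of these array properties in the values were not tested.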

How the results depend on the processing

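No AMPK value that passed changed sign. Without sets ending in _x_at or _s_at, 3 genes of the lists did: Sik3 read -0.12, Ampd2 -0.18 and Eef2k -0.025, none passing. The count of 6 AMPK sets passing between the parents was 1 with 1 probe set per gene, where 7 sets were tested, and 4 to 7 when arrays were left out 1 at a time. The B6C3F1 minus C57Bl/6 count of 1 was 0 with median-centred arrays, 1 probe set per gene, no variance trend or the replicate block, and 0 to 2 without single arrays. The B6C3F1 minus C3H count of 5 was 1 with 1 probe set per gene, 3 with the poly-A covariate, 7 with the Gapdh ratio as a covariate and 4 to 6 without single arrays, and the midparent count of 1 was 0 with 1 probe set per gene. Prkag2 1451140_s_at minus Prkag3 gave -1.30 with a pseudocount of 1 (exact permutation p adjusted to 0.0714), and -1.46 to -0.78 without single arrays. Prkag2 minus Prkag1 gave -1.29 to -0.98 without single arrays. With 1 probe set per gene only each gene's brightest set was kept, and of the 6 sets passing between the parents only Prkag2 1451140_s_at is such a set. The cause of the other changes was not tested. Prkag2, by its brightest set in each alternative, passed between the parents in all 30 (-1.56 to -0.84). The value of -0.84 came from 1423831_at, which stood for Prkag2 without sets ending in _x_at or _s_at. Prkaa2 1429464_at (-3.43 to -2.45), Prkaa2 1429463_at (-1.16 to -1.0) and Prkab2 1435875_at (-0.81 to -0.60) passed in all 29 alternatives that held them. The 19 passing pathway genes were 14 to 22 over 30 alternatives, lowest with no variance trend or with 2 strains alone and highest with the Gapdh ratio as a covariate. Centring arrays on their median moved the median of all sets from -0.02 to 0.08 and the calls from 1422 higher and 1726 lower to 1922 and 1017. Between strains, deviations of arrays with the same replicate number correlated at -0.06 to 0.11, and those with different numbers at -0.20 to 0.21. Of the 15 arrays, 4 correlated best with an array of their own number. With the replicate block, 1406 sets were higher and 1692 lower. Among AMPK sets the block changed only the call of Prkaa2 1429463_at between B6C3F1 and C57Bl/6. Leave-one-out of the within-array tests and of the pathway count, and most other settings of the pathway count and genes, were added after the data were seen. The midparent comparison cannot be fitted with 2 strains alone.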
